A study of Mus musculus with 4 samples.

Results

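Tetraspanins expressed in lymphocytes were followed across B220 cells of marrow and spleen. The 9 genes were Cd9, Cd37, Cd53, Cd63, Cd81, Cd82, Cd151, Tspan32 and Tspan33, taken by their gene name on the array, of 28307 genes or names in all. They had 13 of the array's 41174 gene probes. The genes were selected on their names with earlier results of these arrays known, and the values behind the choice are the intensities on the same 4 arrays. Their levels and differences are therefore a description, and no test is made on them. B220 is the form of the surface phosphatase CD45 carried by cells of the B lineage. The study compared B220 cells, isolated fresh from naive mice, on 4 Agilent 1-colour arrays with 1 array each for bone marrow of mice labelled Mef2c KO, bone marrow of C57BL/6 mice (WT), spleen of Mef2c KO mice and spleen of C57BL/6 mice. The series title calls the loss of Mef2c induced in bone marrow, without saying how. The deleted exons, the driver of the deletion, the background strain of the KO, the ages, the way the cells were isolated and the number of animals behind an array are not stated in the labels.

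Tetraspanins are small membrane proteins that cross the membrane several times and bind each other and partner proteins, such as integrins and co-receptors, into membrane domains. In B cells CD81 is part of the co-receptor complex of the antigen receptor. CD37 and CD53 are largely restricted to leukocytes, CD9 marks marginal zone and B-1 cells and is abundant on platelets, and CD63 sits in late endosomes, lysosomes and secretory granules of many cells.

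The probe sequences are shown for the members whose readings can be judged from the sequence and its place. All are 60 bases long, written 5′ to 3′, and the file headers place them on mouse build mm9, whose exon annotation was not used here. Both Cd37 probes lie on the minus strand, at chr7:52490856-52490915 and chr7:52490780-52490839. Their starts are 76 bases apart, so they read neighbouring stretches of the gene. The Cd53 probe spans 1095 genomic bases at chr3:106565046-106566140 and the Cd63 probe spans 214 at chr10:128348658-128348871. Both probes thus cross stretches of genome, 1035 and 154 bases long, that the probe sequence lacks.
Cd37, brighter probe: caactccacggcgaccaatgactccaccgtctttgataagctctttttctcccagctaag
Cd37, dimmer probe: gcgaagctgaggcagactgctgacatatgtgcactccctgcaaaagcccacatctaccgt
Cd53: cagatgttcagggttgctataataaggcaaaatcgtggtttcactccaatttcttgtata
Cd63: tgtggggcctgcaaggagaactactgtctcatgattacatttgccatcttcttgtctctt

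Promoters are shown for Cd9 and Cd63, at least 2-fold higher on the KO array in the marrow, and for Cd37, at least 2-fold lower on it in the spleen. RefSeq promoters of build GRCm38.p6, with 250 bases before and 50 after a start, were found for 9 of 9 members, with 13 windows in all. The Mef2 box, searched on both strands, was in 0 of the 13 windows, and in 3.19% of all 32851 windows of this length. The GC box GGGCGG was in 7 of the 13 windows, against 35.66% of all windows, and the PU box GAGGAA in 5, against 28.28%. The sequence TATAAA was in 1, that of Cd81, against 13.62%. These matches describe letters in this window only. Capitals mark GC boxes and PU boxes on either strand, none of which overlap. The Cd9 window at chr6:125494711-125495010 (minus strand) held 2 GC boxes, the Cd63 window at chr10:128909095-128909394 (plus strand) 2 PU boxes, and the Cd37 window at chr7:45238790-45239089 (minus strand) 1 GC box and 2 PU boxes.
Cd9 promoter: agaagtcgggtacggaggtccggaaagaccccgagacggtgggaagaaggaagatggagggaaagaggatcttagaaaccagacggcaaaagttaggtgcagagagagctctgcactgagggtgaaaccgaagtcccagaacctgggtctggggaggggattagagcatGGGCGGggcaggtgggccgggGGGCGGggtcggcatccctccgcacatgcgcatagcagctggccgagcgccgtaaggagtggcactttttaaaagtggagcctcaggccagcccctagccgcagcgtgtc
Cd63 promoter: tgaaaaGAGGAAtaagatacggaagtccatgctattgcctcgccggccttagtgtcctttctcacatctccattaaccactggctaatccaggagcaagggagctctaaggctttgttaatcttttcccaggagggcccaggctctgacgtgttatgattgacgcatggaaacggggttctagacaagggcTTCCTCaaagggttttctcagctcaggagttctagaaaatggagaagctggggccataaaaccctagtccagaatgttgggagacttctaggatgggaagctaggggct
Cd37 promoter: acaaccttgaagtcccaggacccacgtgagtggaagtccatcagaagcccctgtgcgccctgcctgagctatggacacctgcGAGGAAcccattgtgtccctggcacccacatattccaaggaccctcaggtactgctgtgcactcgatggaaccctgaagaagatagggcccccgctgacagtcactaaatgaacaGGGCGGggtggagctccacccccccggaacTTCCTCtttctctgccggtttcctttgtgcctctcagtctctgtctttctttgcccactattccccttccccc

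Signals below are Agilent's processed intensities. Levels are log2 signals relative to the 75th percentile of gene spots on the same array, which was 1008 (KO) and 961 (WT) in the marrow and 520 (KO) and 970 (WT) in the spleen. A difference is a log2 value, and a gene counts as apart from 2-fold (a log2 difference of 1). The share of spots that the scanner software marked as well above background lay between 59.3% (spleen KO) and 72.0% (marrow WT). The median SD among repeated spots of a probe was 0.0592 to 0.0729 in log2 units. The software's own error of a member's spot was 10% of its signal in the median, which gives a gap between 2 arrays an error of about 0.204. These errors cover the spot and not the animals, and with 1 array a group no difference has a replicate check. The brighter Mef2c probe, a check of the labels, had signals of 5511 (KO) and 4218 (WT) in the marrow and 11838 (KO) and 8534 (WT) in the spleen. It was thus not lower on either array labelled KO. A dimmer Mef2c probe, from a cDNA clone, had 28.5 (KO) and 21.2 (WT) in the marrow and 128 (KO) and 364 (WT) in the spleen, a difference of -0.61 there. Where the probes lie relative to the deletion is not known, so every direction below rests on the labels. Each tissue was on 1 slide and each genotype at 1 slide position, so slide and tissue, and position and genotype, cannot be told apart. All 9 defining B cell genes, among them Cd79a and Ebf1, were well above background on all 4 arrays.

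Of the 52 member probe values, 45 were well above background, and the brightest probe of each of the 9 members was so on all 4 arrays. The second Cd9 probe, from a cDNA clone and placed on the strand opposite to the first at chr6:125445268-125445327, was not well above background on any array. The second Tspan33 probe was so on marrow WT alone, with a signal of 21.9. The values below are from the brightest probe unless the other is named.

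**Figure D1:**
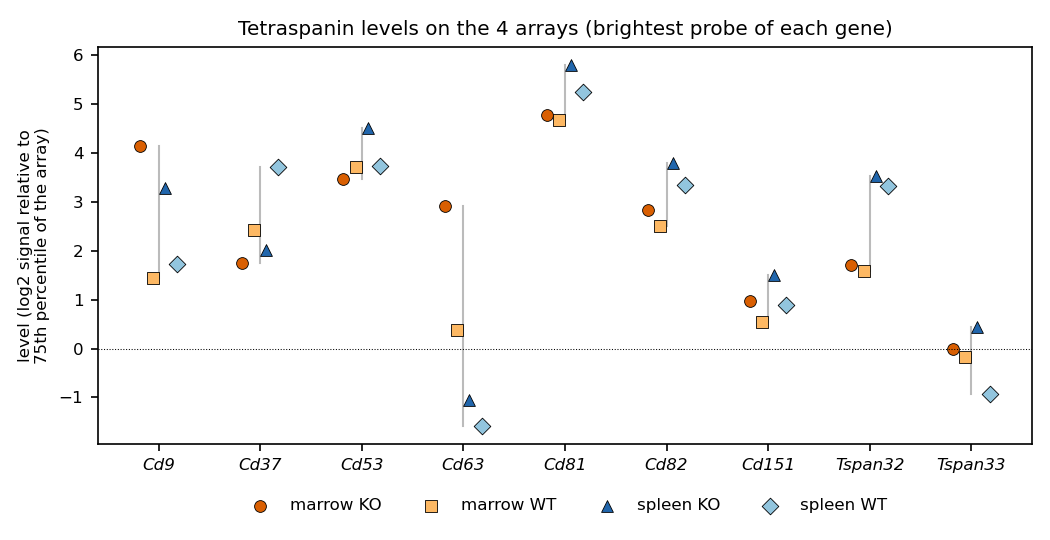
Level of each tetraspanin gene (log2 signal relative to the 75th percentile of the array) by its brightest probe, with 1 symbol for each of the 4 arrays and a grey line over their range. Cd63 has the widest range, 4.50, followed by Cd9 with 2.70, and Cd151 has the narrowest, 0.96.

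In the marrow, where B cells develop, the array labelled KO had 2 of 9 tetraspanins at least 2-fold higher, Cd9 and Cd63, and 0 at least 2-fold lower. Over all 21230 genes measured there 8.35% were 2-fold higher and 4.9% lower, or 13.3% apart either way. The higher genes made up 63.0% of those apart, and 75.2% with normexp background correction or 74.95% with cyclic loess. The median of the 9 members was 0.18, where the 19341 genes well above background on both marrow arrays had a median of -0.06. Cd9, which partners integrins and immunoglobulin superfamily proteins, had signals of 17690 (KO) and 2597 (WT) in the marrow and 5085 (KO) and 3194 (WT) in the spleen. The marrow KO array was the highest, and both KO arrays stood above both WT arrays. The Cd9 difference was 2.70 in the marrow (6.49-fold), between 2.64 and 2.72 under the other scalings, and it ranked 272 from the top of all genes measured. Cd63 had signals of 7630 (KO) and 1249 (WT) in the marrow and 250.1 (KO) and 325 (WT) in the spleen. Here the marrow KO array stood alone, and both spleen arrays were low. Its range of level over the 4 arrays, 4.50, was wider than that of 98.2% of 16516 genes above background on all of them. The Cd63 difference in the marrow was 2.54 (5.82-fold), between 2.48 and 2.62 under the other scalings.

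The other 7 members were within 2-fold in the marrow. Cd37, which is most abundant on mature B cells, was the lowest of them at -0.66, and its dimmer probe differed by -0.54. Its signals in the marrow were 3397 on KO and 5125 on WT by the brighter probe. Cd151, a partner of laminin-binding integrins, had marrow signals of 1987 (KO) and 1394 (WT), and differed by 0.44. Cd82, known as a suppressor of metastasis, stood at 7184 and 5440 and differed by 0.33. Cd53, a leukocyte tetraspanin that keeps L-selectin on the surface, stood at 11115 and 12641 and differed by -0.26. Cd81, of the co-receptor complex, stood at 27463 and 24497, a difference of 0.10. Tspan33, which binds the protease ADAM10, differed by 0.18. Tspan32, a tetraspanin of blood cells, differed by 0.13 with its brighter probe and by -0.17 with its dimmer one, so that its probes disagreed in sign. Of these 7, the marrow gaps of Cd81, Cd82, Cd53, Tspan32 and Tspan33 were within 0.408, which is 2 times the error of a gap. Cd151 and Cd37 were not.

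Markers of other cells were higher on marrow KO beside Cd9 and Cd63. The neutrophil list had 12 of 13 genes at least 2-fold higher on marrow KO and 0 lower. Summed over the list, the relative signal of neutrophil genes was 1445 (KO) and 441 (WT) in the marrow and 146 (KO) and 11.3 (WT) in the spleen, which is the order of the Cd63 levels. The sizes were unlike, as Cd63 differed by only 0.52 (1.44-fold) between the spleen arrays. Of 11 platelet and megakaryocyte genes 7 were higher and 0 lower, with sums of 27.0 (KO) and 10.6 (WT) in the marrow and 12.3 (KO) and 4.57 (WT) in the spleen. Of 9 stromal and endothelial genes 7 were higher and 0 lower, with sums of 38.2 (KO) and 12.8 (WT) in the marrow and 1.43 (KO) and 2.80 (WT) in the spleen. Neither the platelet sums nor the stromal sums followed the order of the Cd63 levels. The macrophage list had 1 of 12 genes higher and 1 lower, with sums of 30.2 and 26.4, and the T cell list 3 of 8 higher and 0 lower, with sums of 7.44 and 4.63. In the marrow all 13 neutrophil and all 11 platelet genes exceeded background on each array. Of the 9 B cell genes 3 were lower and 0 higher, with sums of 483 and 547. The part of such cells in the Cd9 and Cd63 differences was not tested. In these bulk isolates fewer cells of a type and less RNA per cell cannot be told apart.

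**Figure D2:**
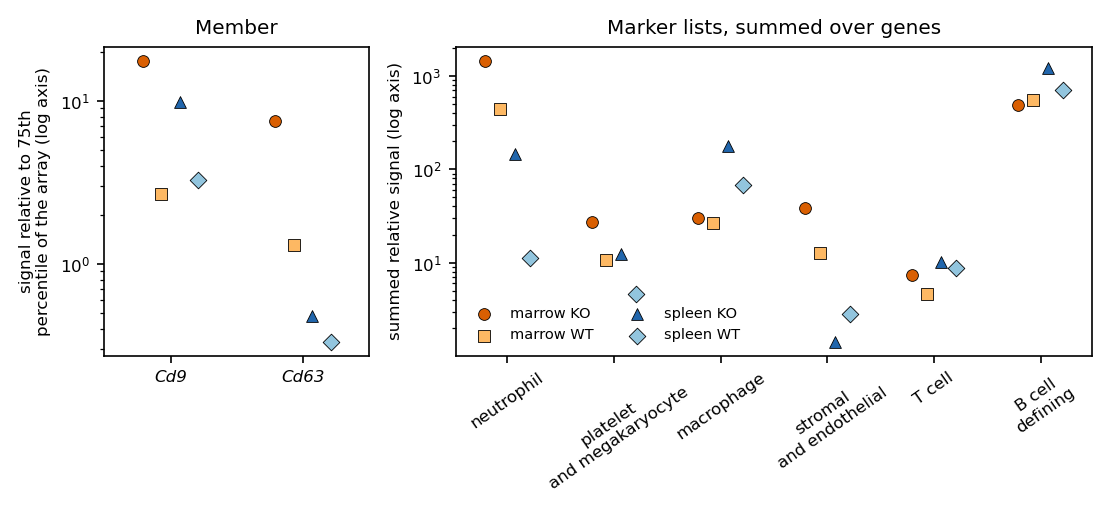
Relative signal of Cd9 and Cd63 (left, log axis) and the summed relative signal of 6 marker lists (right, log axis), each symbol 1 array, scaled to the 75th percentile of that array. Cd63 falls from marrow KO over marrow WT and spleen KO to spleen WT, whereas Cd9 is higher on both KO arrays than on both WT arrays. The neutrophil sum on the spleen arrays rests largely on S100a9 and S100a8.

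In the spleen, a site of mature B cells, the array labelled KO had 2 of 9 tetraspanins at least 2-fold higher, Cd9 and Tspan33, and 1 lower, Cd37. Over all 19810 genes measured there 19.8% were 2-fold higher and 14.4% lower, or 34.3% apart either way. The higher genes made up 57.9% of those apart, and 79.7% with median scaling or 69.9% with normexp. The members' median was 0.55. That of the 16735 genes well above background on both spleen arrays was 0.27 (0.69 with median scaling). With genes cut into 4 classes of brightness, the brightest class, which holds Cd9, Cd37, Cd53, Cd81, Cd82 and Tspan32, had a median of 0.69. Cd37 had spleen signals of 2101 on KO and 12680 on WT by the brighter probe, and of 1586 and 8735 by the dimmer one. The WT spleen array was by far the highest of the 4, and the KO spleen array was nearer to both marrow arrays. Its differences were -1.69 (3.23-fold lower) and -1.56 by the 2 probes shown above, a gap of 0.13. Over 5133 genes with several measured probes the median gap in this comparison was 0.97, and 49.2% of the genes had probes over 2-fold apart. The Cd37 probes read neighbouring stretches, with starts 76 bases apart, so their small gap is a narrow check. The Cd37 difference stayed at least 2-fold under each other scaling, between -1.28 with median scaling and -2.26 with quantile normalization.

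Like that of Tspan33, the spleen difference of Cd9 rested on a single probe well above background, so no second probe checked it. The difference of Cd9 was 1.57 (2.97-fold). It was 1.07 with quantile normalization, 1.03 with cyclic loess and 0.88 after the median of the brightest class was subtracted. Tspan33 had spleen signals of 703 (KO) and 507 (WT), a difference of 1.37 (2.59-fold), and its marrow signals were 1007 on KO and 847 on WT. Spleen WT was the lowest of the 4 arrays for this gene. The Tspan33 difference in the spleen was between 1.27 and 1.79 under the other scalings. Its second probe, 1768 bases away, was not well above background on either spleen array, and with the median over both probes the difference was 0.44, below 2-fold.

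With scaling to the 75th percentile the remaining spleen differences lay within 2-fold, and their size and in part their sign depended on the scaling. Cd53 had spleen signals of 11809 (KO) and 12924 (WT), and a difference of 0.77. This was 0.004 with quantile normalization, 0.04 with cyclic loess and 1.19, past 2-fold, with median scaling. Cd81 had signals of 28919 and 36755, and a difference of 0.55 that became -0.13 with quantile normalization and -0.38 with cyclic loess. Cd82, at 7216 and 9840, differed by 0.45, which became -0.21 and -0.16 in the same way. For Tspan32 the brighter probe differed by 0.20, which became -0.43 and -0.32, and the dimmer one by -0.50. Cd151, at 1466 and 1802, differed by 0.60 (1.02 with median scaling) and kept its sign under each scaling, as did Cd63, at 0.52. Before scaling, all of these 6 had a lower signal on spleen KO than on spleen WT, and their differences were above 0 only after each array's 75th percentile, 520 and 970, was taken out. Markers of other cells differed here too. Of 12 neutrophil genes 6 were higher and 1 lower on spleen KO, of 12 macrophage genes 6 were higher and 1 lower (summed signals 179 and 67.5), and of 11 platelet genes 3 were higher and 0 lower. Of 6 erythroid genes 4 were higher and 0 lower, with sums of 28.03 on KO and 7.78 on WT, beside Tspan33, which red cell precursors also carry. Not all lists ran this way. Of 8 NK cell genes 1 was higher and 3 lower, and of 6 plasma cell genes 1 was higher and 3 lower. Conventional dendritic cell genes had 0 of 6 higher and 2 lower, and stromal and endothelial genes 0 of 7 higher and 1 lower. The B cell list had 3 of 9 genes higher and 4 lower, and a median of -0.29 (0.13 with median scaling). Its sums, 1202 on KO and 713 on WT, rested largely on the bright genes Cd79b, Blnk and Ms4a1. Its counts became 0 and 5 with cyclic loess, 0 and 3 with quantile normalization and 3 and 2 with median scaling. The part of all these cells in the spleen differences was not tested.

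**Figure D3:**
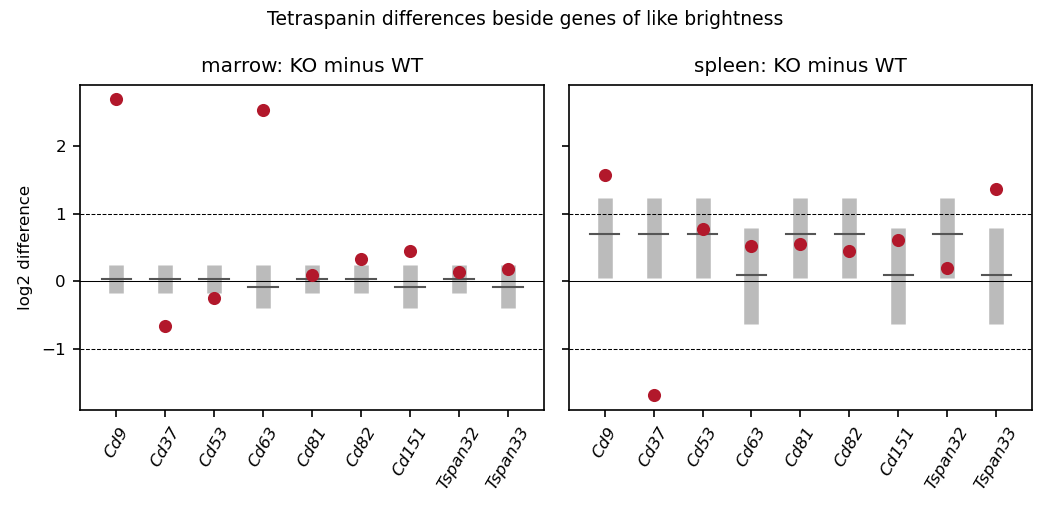
Log2 difference of KO minus WT for each tetraspanin (red points) in marrow and spleen, beside the interquartile range (grey bar) and median (dark line) of all genes of like brightness (the same 1 of 4 classes); dashed lines mark 2-fold. Cd9 and Cd63 lie above 2.5 in the marrow, and Cd37 lies at -1.69 in the spleen, below the bar of like genes.

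**Figure D4:**
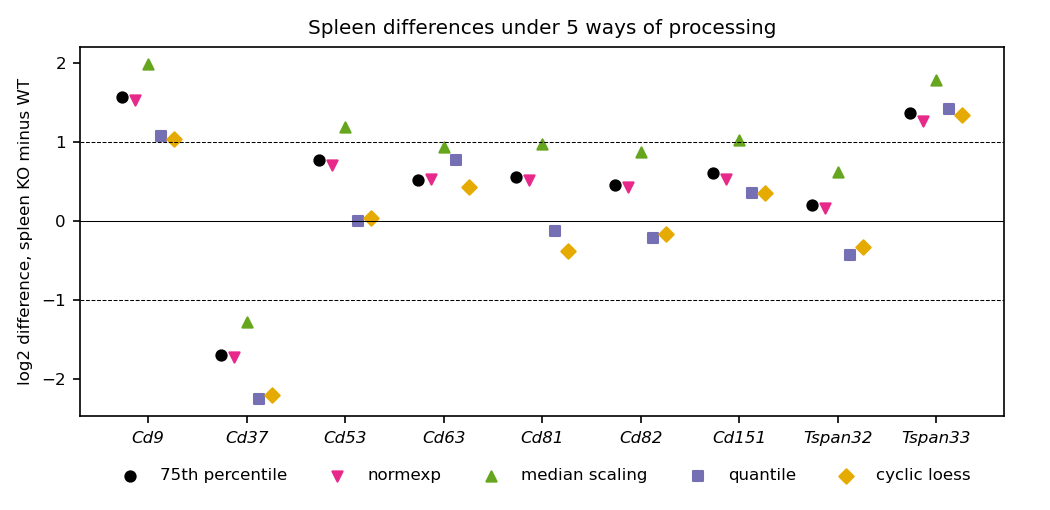
Spleen KO minus WT log2 difference of each tetraspanin under 5 ways of processing, with dashed lines at 2-fold. Cd37 stays below -1 and Cd9 and Tspan33 above 1 in each, while Cd81, Cd82 and Tspan32 change sign with quantile normalization and cyclic loess.

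Between the WT tissues, spleen against marrow, 2 of 9 members were at least 2-fold higher in the spleen, Tspan32 and Cd37, and 1 lower, Cd63. Over all 21444 genes measured here 15.5% were higher and 15.7% lower, or 31.2% apart either way. The higher genes made up 49.6% of those apart, and 38.9% with median scaling. This comparison shares its arrays with both genotype comparisons. Tspan32 had signals of 9767 on spleen WT and 2876 on marrow WT by its brighter probe, a difference of 1.75 (3.36-fold), and its dimmer probe, 3514 bases away, gave 1.40. Spleen KO, at 6007, also stood above marrow KO, at 3304, and both spleen levels were above both marrow levels by both probes. Cd37 differed by 1.29 (2.45-fold) and 1.36 by its probes. Cd63 differed by -1.96 (3.88-fold lower in the spleen). Cd82 differed by 0.84, and passed 2-fold with quantile normalization (1.13), cyclic loess (1.09) and centring on brightness (1.11), which made 3 members higher. Cd81 differed by 0.57, Cd151 by 0.36, Cd9 by 0.28 and Tspan33 by -0.75. Cd53, at 0.02, was level between the WT tissues within the error of the spots, with a sign that changed with median scaling (-0.16). The neutrophil list was lower in the WT spleen for 12 of 13 genes, the platelet list for 8 of 11 and the stromal and endothelial list for 7 of 8, beside Cd63. The macrophage list was higher for 8 of 12 genes, the T cell list for 6 of 9 and the NK cell list for 6 of 8, and the part of these cells was not tested.

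**Figure D5:**
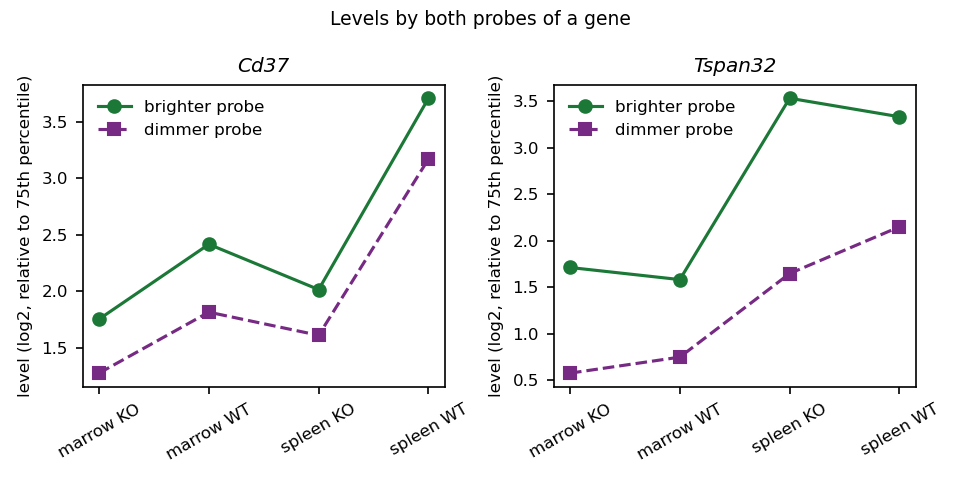
Levels of Cd37 and Tspan32 on the 4 arrays by each of their 2 probes (log2 signal relative to the 75th percentile of the array). Both Cd37 probes are highest on spleen WT, and both Tspan32 probes are higher on the spleen arrays than on the marrow arrays, but put spleen KO and WT in opposite order.

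Between the KO tissues 3 of 9 members were at least 2-fold higher in the spleen, Tspan32 at 1.82 (1.07 by its dimmer probe), Cd53 at 1.04 and Cd81 at 1.03, and 1 lower, Cd63 at -3.98 (15.7-fold lower). Over all 20319 genes measured 15.7% were higher and 13.9% lower, or 29.6% apart either way. The higher genes made up 53.1% of those apart, and 65.1% with median scaling. Cd53 and Cd81 were below 2-fold with normexp (0.95 and 0.96), quantile normalization (0.69 and 0.66), cyclic loess (0.64 and 0.50) and centring on brightness (0.71 and 0.70). Cd82 differed by 0.96, Cd151 by 0.52 and Tspan33 by 0.44. Cd9 differed by -0.84, and was 2-fold lower with quantile normalization (-1.08) and cyclic loess (-1.14). Cd37 differed by 0.26 between the KO tissues, and by -0.02 with cyclic loess, against 1.29 between the WT tissues. The stromal and endothelial list was lower in the KO spleen for 8 of 9 genes and the neutrophil list for 13 of 13, beside the Cd63 difference, and their part in it was not tested.

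The order of the 4 arrays differed from member to member. Cd9 ran from marrow KO over spleen KO to spleen WT and marrow WT, of which the last pair was within 2 times the error of a gap. Cd37 ran from spleen WT over marrow WT and spleen KO to marrow KO, and each of the last 3 was within 2 times that error of the next. Cd63 ran from marrow KO over marrow WT and spleen KO to spleen WT, each step larger than 2 times the error. Cd81 and Cd82 ran from spleen KO over spleen WT to both marrow arrays, which were within 2 times the error of each other. For both genes the spleen arrays changed places with quantile normalization and cyclic loess. Tspan32 fell into both spleen and both marrow arrays. Cd53 was highest on spleen KO, by a gap of 0.77 that was 0.004 with quantile normalization. Cd151 ran from spleen KO over marrow KO and spleen WT to marrow WT, with each of the last 3 within 2 times the error of the next. Tspan33 stood apart on spleen KO and, at the low end, on spleen WT. Its gap of spleen KO over marrow KO, 0.436, was 0.396 with normexp or quantile normalization and 0.326 with cyclic loess. These 3 scalings put it within 0.408, which is 2 times the error. Tspan32 and Cd81 are close neighbours on chromosome 7, with their probes 48674 bases apart and 1 annotated gene, R74862, starting between them in the RefSeq table of GRCm38.p6. Their WT spleen-marrow differences were 1.75 and 0.57.

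Among 16507 other genes above background on all 4 arrays, those with levels most like Cd63, by the root mean square distance of levels centred on each gene's mean over the 4 arrays, were St3gal5, a ganglioside synthase (0.143), Cpne2 (0.169) and Epdr1 (0.174). Those most like Cd9 were Arrb2, which encodes a beta-arrestin (0.0934), Prss12 (0.141) and Ltbr, the lymphotoxin beta receptor (0.204). For Arrb2 the KO minus WT differences were 2.50 (marrow) and 1.40 (spleen), beside 2.70 and 1.57 for Cd9. For St3gal5 they were 2.57 and 0.77, beside 2.54 and 0.52 for Cd63. Both genes were picked for likeness on these same 4 arrays, so the closeness of the differences follows from the choice.

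Other tetraspanins were measured on the same arrays. Of 22 listed, 21 were on the array and 18 were above background on at least 1 array. In the marrow 4 of 17 measured were at least 2-fold higher on KO and 0 lower, with a median of 0.45, where 8.35% of all genes were higher. They were Tspan18 at 2.23, Tspan12 at 1.80, Tspan9 at 1.37 and Tspan10 at 1.04, and Tspan6 and Tspan13 followed at 0.75 and 0.66. Tspan10 had low signals, 69.5 (KO) and 32.2 (WT), and with normexp 3 of 16 were higher and 0 lower. The neutrophil list (12 of 13 genes) and the stromal and endothelial list (7 of 9) were higher on the same array. The part of such cells in these differences was not tested. In the spleen, 4 of 16 stood higher and 1 lower (median 0.48), and with median scaling 7 were higher and 1 lower. Of all genes there, 19.8% stood higher and 14.4% lower, so the count is near the background. Tspan4 differed by 1.91, Tspan3 by 1.48, Tspan31 by 1.44 and Tspan1 by 1.19, the last with low signals of 43.3 (KO) and 35.3 (WT). Tspan5, which like Tspan33 belongs to the tetraspanins that carry ADAM10, differed by -1.84. Tspan18 stood at -0.95 there.

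Partner proteins of tetraspanins came from a list of 32 genes, of which all gave values. On marrow KO 7 stood 2-fold or more higher and 2 lower, and the median was 0.29, where all genes had 8.35% higher and 4.9% lower. The neutrophil list stood higher on the same array (12 of 13 genes, median 2.58), and its part in the partner differences was not tested. Clec7a, the fungal receptor Dectin-1 that CD37 binds, differed by 3.51, and Ifitm3, Ifitm1 and Ifitm2, small interferon-induced proteins found with CD9 and CD81, by 2.64, 2.32 and 2.27. Cr2, a complement receptor found with CD81, differed by -1.70 and the adhesion receptor gene Cd2 by -1.34. On spleen KO 7 stood higher and 2 lower, and the median was -0.01, which ranged from -0.29 with cyclic loess to 0.37 with median scaling. All genes had 19.8% higher and 14.4% lower there, and the count of higher partners is near that background. Itga4, the integrin alpha 4 chain, differed by -2.16, its partner chain Itgb1 by 1.75, Zdhhc2, a palmitoyltransferase that modifies tetraspanins, by 1.89, Sdcbp, the CD63-binding adaptor syntenin, by 1.83 and Ptprc, which encodes CD45, by 1.45. Clec7a, at 1.60 in the spleen, and the hyaluronan receptor Cd44, at 1.12 and 1.01, were higher on KO in both tissues.

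A fit of genotype over both tissues in limma, with tissue as a term and 1 residual degree of freedom, called 10 of 22058 genes at an adjusted p under 0.05 (0.0453%). In it the tissues stand in for replicates of the genotype. Of the 18 other tetraspanins and 32 partners tested, 0 passed in limma, and 1 and 5 had an unadjusted p under 0.05, where 2495 of all 22058 genes had one. With normexp the fit called 630 genes, with median scaling 443, with quantile normalization 2 and with cyclic loess 0 (2039 at an unadjusted p under 0.05). Clec7a had an adjusted p of 0.175 in limma (unadjusted 0.0017).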

How the data were processed

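RNA of B220 cells was measured on 4 arrays, grouped by the labels, and 0 deposited columns belonged to no sample. The authors deposited intensity values, on a linear scale, from Agilent Feature Extraction 10.5.1.1, background-subtracted and detrended, with no normalization between arrays recorded, per the file headers. The deposited series matrix held the same intensity at all 45018 spots. Control spots and 72 to 85 outlier spots per array were left out, and 0 gene spots were saturated. Signals were taken to log2 and the array's 75th percentile was subtracted. Each gene was represented by the probe with the highest mean level, named through its accession in RefSeq GRCm38.p6 (25097 of 41174 probes) or else by the file's name. A gene was measured where well above background on 1 of the 2 arrays compared. If 1 array was not, the lowest value well above background on it, or the gene's own if higher, gave a bound.

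Members and lists were chosen with earlier results of these data known. Named genes were all members, genes of the family and partner lists 2-fold apart the same way in both tissues, the 6 largest differences of each list in each tissue, and the 3 genes nearest to the 2 members of widest range. R 4.3.3 and limma 3.58.1 were used, the latter with Benjamini-Hochberg adjustment. The fit was first run on simulated data with 200 genes changed, a common spread and no tissue effect. That run checks the code and not how well the fit does on these data. Alternatives were normexp (offset 50), quantile, cyclic loess and median scaling, the median over probes, a probe choice without spleen KO, no background filter and a 1.5-fold threshold. Centring on the median of a gene's class of brightness (4 classes) was added after the data were seen.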

Additional observations from a re-analysis of the deposited data

Results flagged for a closer look

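With scaling to the 75th percentile, Cd53 was the 1 member whose brightest probe had KO minus WT differences of opposite sign, -0.255 in the marrow and 0.77 in the spleen, each from 1 array a group. Whether the tissues differ was not tested. The spleen value was 0.004 with quantile normalization and 0.038 with cyclic loess, and the marrow value lay within 2 times the error of the spots (0.408). With either of these scalings Cd81, Cd82 and Tspan32 were also above 0 in the marrow and below 0 in the spleen.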

How the results depend on the processing

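Under the alternatives 106 counts stayed within 1.5 times the original and 36 moved. Leaving out the background filter could not change the member counts, because each member's brightest probe was above background on all 4 arrays. For single members 126 differences stayed close to the original, 90 moved and 0 of at least 2-fold changed sign. Part of the 126 could not move. The probe choice without spleen KO picked the same probe for every member. The median over probes could not change Cd53, Cd63, Cd81, Cd82 or Cd151, which have a single probe. The 126 is thus no measure of stability. No alternative could leave out a replicate, with 1 array a group. The labels give no replicate numbers, so no replicate block was fitted, and tissue is a term of the limma fit. In the marrow the 1.5-fold threshold gave 1 member lower, and 2979 genes higher and 3145 lower in all. Normexp gave 1044 genes higher and 344 lower there, and no background filter 2123 lower. In the spleen 4 members were higher with median scaling or at 1.5-fold, and 1 with the median over probes or centred on brightness. All genes higher in the spleen were 6536 with median scaling and 6522 at 1.5-fold, and those lower 1383 with normexp, 1663 with median scaling and 4441 at 1.5-fold. Between WT tissues 1.5-fold gave 2 members lower, with 5280 genes higher and 6030 lower, and normexp 2075 and 2223. Between KO tissues 1 member was higher with normexp, quantile, cyclic loess or centring, and 2 were lower with quantile, cyclic loess, centring or 1.5-fold. All genes there were 5049 higher without a filter, 5572 higher and 4280 lower at 1.5-fold, and 1752 lower with normexp. limma called 630 genes with normexp, 2 with quantile normalization, 0 with cyclic loess and 443 with median scaling. With the median over probes, which takes in its dark second probe, Cd9 differed by 1.38 in the marrow, 1.14 in the spleen and 0.05 between KO tissues, and Tspan33 by 0.44 in the spleen, where it was no longer 2-fold higher. These median values take in a second probe that was not well above background on the arrays compared, and so follow from the setting. The cause of the other shifts was not tested. The dim spleen KO array limits what could be measured in the spleen.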
